A study of Mus musculus with 6 samples.

Results

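Schwann cells are the glia of peripheral nerves, and the 8 genes described here, Mbp, Pmp22, S100b, Erbb3, Ngfr, Cdh19, Gfra3 and L1cam, are widely used to recognise them or their myelin. The genes were chosen by name, with earlier results of these data known, and all 8 were measured among the 17924 genes of the table. The libraries were made from mouse adipocyte cultures, in which dermal fibroblasts from the dorsal skin of newborn (P0) mice were kept for 14 days in adipocyte differentiation medium. The CTL cells came from Pdgfra-Cre+ mice that were either Nelfb fl/wt or Nelfb wt/wt, and the labels do not say which of these genotypes a CTL library had. The Nelfb-/- cells came from Nelfb fl/fl Pdgfra-Cre+ mice, so that both groups carried the Cre transgene, which the Pdgfra promoter drives in preadipocyte lineages. Each group held 3 libraries, described by the study as biological triplicates, on a C57BL/6J background. Whether Nelfb was deleted in the cells that express Schwann cell genes was not tested. The question was how the mRNA of these genes differed between CTL and Nelfb-/- cultures.

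Schwann cells arise from the neural crest under the transcription factor Sox10, which also acts in melanocytes, the other crest derivative of skin. Their precursors survive and divide through the receptor Erbb3, whose ligands are the neuregulins that axons display. Immature and non-myelinating Schwann cells carry Ngfr, L1cam and Cdh19, whereas myelinating cells turn on Egr2 (Krox20) and make the proteins of compact myelin, among them Mbp and Pmp22. Several of the 8 genes are also used by other cells. Pmp22 is a growth arrest gene of fibroblasts, S100b is made by adipocytes, and the Mbp gene has an upstream promoter whose transcripts, called golli, occur in cells other than glia. The values here were given per gene, so that transcripts from different promoters cannot be told apart.

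Values are in CPM, the reads of a gene scaled to the same total in each library, and the libraries held 17179474 to 29410900 such reads. The floor of detection, 3 reads, was worth 0.102 to 0.175 CPM. Nelfb, the deleted gene, was measured at 19.8 ± 2.53 CPM (SD, n = 3) in CTL and at 4.98 ± 0.938 CPM in Nelfb-/- cells, with no overlap between the groups. Adipocyte genes were abundant in every library, Adipoq at 488 to 1857 CPM. On the second principal component, which held 27.7% of the variance, CTL replicate 3 (-74.9) and Nelfb-/- replicate 1 (79.2) lay apart from the other libraries of their groups. In CTL replicate 1 the summed level of 4 Y-linked genes was 7.76 CPM and Xist was at 771 CPM, against 162 to 264 CPM and at most 29.8 CPM in the other 5 libraries. Differences are log2 fold changes of Nelfb-/- over CTL on the scale log2(reads + 1), fitted with limma to the 16252 genes whose mean reached 10 reads. Called genes had both a change of 2-fold or more and an adjusted p no higher than 0.05. With 3 libraries against 3, the smallest p of an exact two-sided permutation test of 1 gene is 0.1. For a nerve cell type in such bulk RNA, more cells of the type and more RNA per cell cannot be told apart.

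Of the 8 genes, 5 were higher and 1 was lower in Nelfb-/- cells, and 2 were not called. Erbb3, Cdh19, Ngfr, L1cam and Gfra3 rose between 4.81-fold and 6.58-fold by the ratio of the mean CPM, Mbp fell, and Pmp22 and S100b had groups that overlapped. Over all genes tested, 7.58% were called higher and 3.64% were called lower. At the 5 genes that rose all Nelfb-/- libraries exceeded all CTL libraries, which was the case at 22.0% of all genes tested, and at Mbp every Nelfb-/- library lay below, which was the case at 16.1%. The median log2 fold change of the 8 genes was 2.38, against 0.07 for all genes tested. The plot of CPM by library shows every value.

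**Figure D1:**
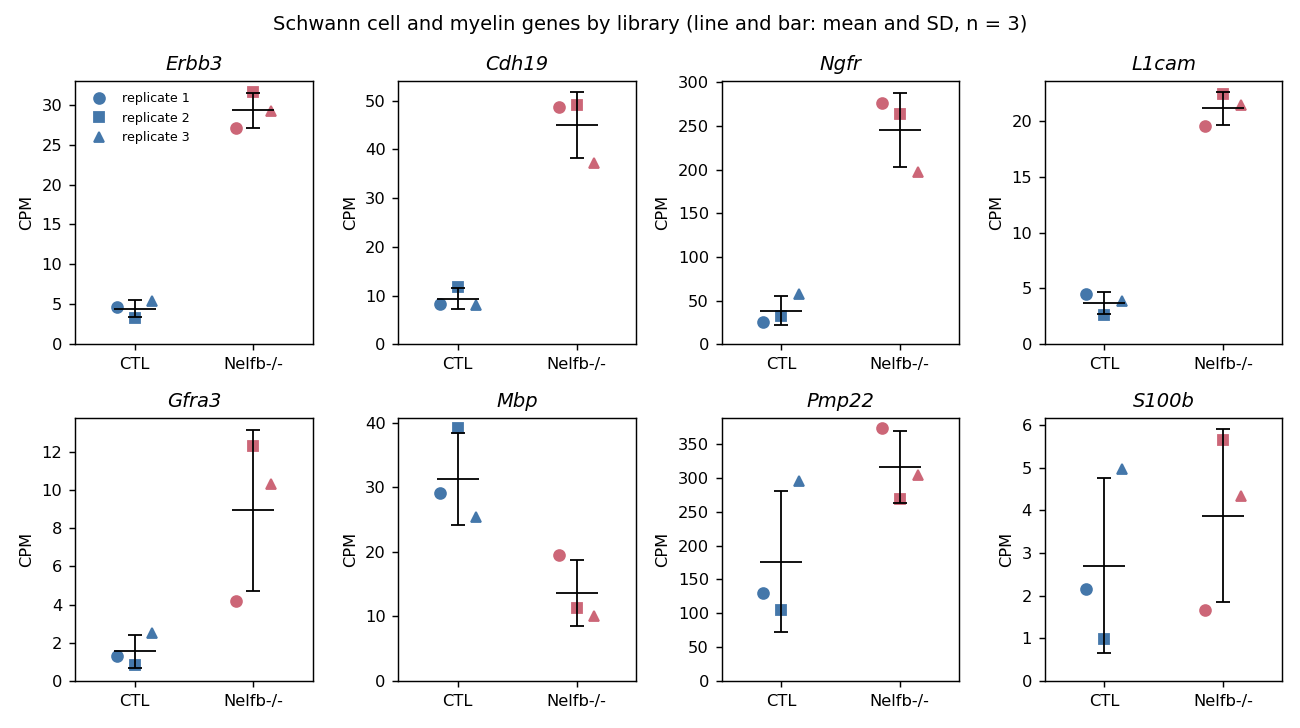
CPM of the 8 genes in each library, on linear axes that start at 0, for CTL (blue) and Nelfb-/- cells (red), with marker shapes for the replicates and the mean ± SD (n = 3) in black. Erbb3, Cdh19, Ngfr, L1cam and Gfra3 have no Nelfb-/- library within the CTL range, Mbp lies lower in all 3 Nelfb-/- libraries, and CTL replicate 3 lies within the Nelfb-/- range for Pmp22 and S100b.

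Erbb3 (ENSMUSG00000018166, chromosome 10 from 128567523 to 128589652 on mm10), the neuregulin receptor without which Schwann cell precursors are lost, had 4.60, 3.31 and 5.44 CPM in the CTL libraries against 27.1, 31.5 and 29.3 CPM in those of Nelfb-/- cells, given here and below in the order of replicates 1, 2 and 3. The lowest Nelfb-/- library thus lay well above the highest CTL library, and the 3 Nelfb-/- libraries were close to each other. The log2 fold change was 2.73 (SE 0.22, adjusted p = 0.0033 by limma), and it lay between 2.54 and 2.89 over the 6 fits with 1 library omitted.

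Neuregulin signals reach the cell through Erbb3 paired with Erbb2, and 5 of the 8 genes listed for neuregulins and their receptors were tested. Besides Erbb3, Nrg1 was called higher, with 2.21, 1.77 and 1.60 CPM in the CTL libraries against 4.41, 9.37 and 7.47 CPM in those of Nelfb-/- cells (log2 fold change 1.85, SE 0.34, adjusted p = 0.017 by limma). Nrg1 encodes the principal ligand of Erbb3 in nerves. Its call did not hold when CTL replicate 1 or 2 or Nelfb-/- replicate 2 or 3 was left out, with a limma adjusted p of up to 0.085. Erbb2 averaged 12.6 ± 1.89 CPM (SD, n = 3) in CTL cultures and 18.1 ± 2.7 CPM in Nelfb-/- cultures and was not called (log2 fold change 0.52, 95% interval 0.06 to 0.99, limma, adjusted p = 0.12). Egfr, a related receptor of fibroblasts, was also not called, at 0.17 (95% interval -0.36 to 0.70, limma, adjusted p = 0.64). Nrg4, a neuregulin known as an adipocyte product, was the 1 gene of the list called lower, at 12.9 ± 4.28 CPM in CTL cultures and 3.55 ± 2.44 CPM in Nelfb-/- cells (log2 fold change -1.99, limma, adjusted p = 0.043), and it lost its call without the same 4 libraries, with a limma adjusted p of up to 0.15, and with a single prior variance for all genes.

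Cdh19 (ENSMUSG00000047216, chromosome 1 from 110888326 to 110977584), a type II cadherin found in Schwann cell precursors and other crest derivatives, had 8.21, 11.8 and 8.06 CPM in the CTL libraries against 48.7, 49.2 and 37.1 CPM in those of Nelfb-/- cells. Even Nelfb-/- replicate 3, the lowest of its group, was above every CTL library. Its log2 fold change was 2.27 (SE 0.21, adjusted p = 0.0040 by limma), between 2.18 and 2.45 over the same kind of fits. Among the type II cadherins, 6 of 13 were tested, and 4 of these, Cdh19, Cdh6, Cdh10 and Cdh24, were called higher and 0 lower. The smallest log2 fold change among the 6 was 1.16, at Cdh5, which with Cdh11 was not called. Cdh6 rose from 2.46 ± 1.67 CPM (SD, n = 3) to 21.0 ± 6.53 CPM (log2 fold change 3.21, SE 0.49, adjusted p = 0.011 by limma), a call that did not hold without Nelfb-/- replicate 3 (limma, adjusted p = 0.058). Cdh10 was near the floor in CTL, at 0, 0.0467 and 0.714 CPM, and at 2.37, 7.22 and 5.26 CPM in Nelfb-/- cells, and its call did not hold without CTL replicate 1 or 2 or Nelfb-/- replicate 2 or 3 (limma, adjusted p up to 0.11).

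Ngfr (ENSMUSG00000000120, chromosome 11 from 95568818 to 95587735), the low-affinity receptor for neurotrophins and a surface marker of immature and repair Schwann cells, had 25.6, 32.2 and 57.8 CPM in the CTL libraries against 276, 264 and 197 CPM in those of Nelfb-/- cells. CTL replicate 3 was the highest of its group and still far below all Nelfb-/- libraries. The log2 fold change was 2.74 (SE 0.32, adjusted p = 0.0057 by limma). Among other genes of neurotrophin signalling, Ntrk2, the receptor of Bdnf, went in the opposite direction to Ngfr, from 146 ± 33.3 CPM (SD, n = 3) to 31.0 ± 2.09 CPM (log2 fold change -2.21, SE 0.19, adjusted p = 0.0035 by limma). Bdnf and Sort1, a co-receptor of Ngfr, were not called, with log2 fold changes of 0.22 (95% interval -0.31 to 0.74) and -0.34 (95% interval -1.01 to 0.34).

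L1cam (ENSMUSG00000031391, chromosome X from 73853778 to 73896105), an adhesion molecule of axons and of non-myelinating Schwann cells, had 4.51, 2.61 and 3.91 CPM in the CTL libraries against 19.5, 22.4 and 21.4 CPM in those of Nelfb-/- cells. The groups lay apart and the Nelfb-/- libraries differed little. Its log2 fold change was 2.54 (SE 0.24, adjusted p = 0.0040 by limma), and without CTL replicate 1, the library with high Xist, it was 2.704 (limma, adjusted p = 0.018). Of its exons, 1.36% overlap Arhgap4 on the same strand. All 4 genes of the L1 family were tested, 3 were called higher, and at all 4 the lowest Nelfb-/- library exceeded the highest CTL library. Chl1, the close homologue of L1cam, rose from 1.07 ± 0.532 CPM (SD, n = 3) to 13.5 ± 5.26 CPM (log2 fold change 3.61, SE 0.46, adjusted p = 0.0068 by limma). Nfasc, which organises nodes of Ranvier, rose from 0.873 ± 0.275 to 5.89 ± 1.30 CPM (log2 fold change 2.72, SE 0.33, adjusted p = 0.0062 by limma). Nrcam was at 11.4 ± 6.62 CPM and 28.8 ± 8.87 CPM and was not called (log2 fold change 1.44, limma, adjusted p = 0.065).

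Gfra3 (ENSMUSG00000024366, chromosome 18 from 34689898 to 34720387), the receptor that binds artemin and passes the signal to Ret, had 1.31, 0.840 and 2.52 CPM in the CTL libraries against 4.17, 12.3 and 10.3 CPM in those of Nelfb-/- cells. Nelfb-/- replicate 1 was thus nearer to CTL replicate 3 than to the other Nelfb-/- libraries. The log2 fold change was 2.49 (SE 0.55, adjusted p = 0.030 by limma). The call was lost without CTL replicate 1 (2.43, limma, adjusted p = 0.098), CTL replicate 2 (2.13, 0.097), Nelfb-/- replicate 2 (2.19, 0.096) or Nelfb-/- replicate 3 (2.31, 0.12), all with the same direction.

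Of the 9 genes of the GDNF family of ligands and receptors, 8 were tested, 3 were called higher and 1 lower. Artn, which encodes artemin, was at 0.406, 0.467 and 0.986 CPM in the CTL libraries against 4.17, 8.15 and 6.41 CPM in those of Nelfb-/- cells, so that this ligand rose along with its receptor (log2 fold change 3.29, SE 0.43, adjusted p = 0.0076 by limma). Gfra1, the receptor for GDNF, rose from 5.49 ± 0.749 CPM (SD, n = 3) to 53.5 ± 5.43 CPM (log2 fold change 3.28, SE 0.17, adjusted p = 0.0023 by limma). Nrtn, which encodes neurturin, the ligand of Gfra2, fell from 2.39 ± 0.925 CPM to 0.341 ± 0.140 CPM (log2 fold change -2.64, SE 0.49, adjusted p = 0.018 by limma), a call that was lost without CTL replicate 1 or 2 or Nelfb-/- replicate 3 (limma, adjusted p up to 0.078). Ret, the shared signalling receptor, had 1.26, 1.07 and 2.52 CPM in the CTL libraries against 3.03, 19.3 and 18.0 CPM in those of Nelfb-/- cells. As with Gfra3, Nelfb-/- replicate 1 was the low library of its group. Ret was not called (log2 fold change 2.72, 95% interval 0.90 to 4.54, limma, adjusted p = 0.058), but it was called without Nelfb-/- replicate 1 (3.59, limma, adjusted p = 0.011) and with the replicate number as a block (2.72, limma, adjusted p = 0.025). Gdnf itself was not called (0.83, 95% interval -0.27 to 1.93).

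Mbp (ENSMUSG00000041607, chromosome 18 from 82475146 to 82585637), a major protein of compact myelin, was the member that fell. It had 29.1, 39.2 and 25.4 CPM in the CTL libraries against 19.4, 11.4 and 10.04 CPM in those of Nelfb-/- cells. The groups did not overlap, with Nelfb-/- replicate 1 the nearest to CTL. The log2 fold change was -1.23 (SE 0.30, 95% interval -1.95 to -0.52, limma, adjusted p = 0.038). The call was lost without CTL replicate 1 (-1.27, limma, adjusted p = 0.11), CTL replicate 2 (-1.06, 0.13), Nelfb-/- replicate 2 (-1.14, 0.12) or Nelfb-/- replicate 3 (-1.05, 0.13), and with a single prior variance for all genes (-1.23, 0.053).

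Pmp22 (ENSMUSG00000018217, chromosome 11 from 63128982 to 63159547), a membrane protein of compact myelin, had 129, 105 and 295 CPM in the CTL libraries against 374, 269 and 304 CPM in those of Nelfb-/- cells. CTL replicate 3 lay above Nelfb-/- replicate 2, while the other CTL libraries lay below all Nelfb-/- libraries. The log2 fold change was 0.98 (SE 0.39, 95% interval 0.04 to 1.92, limma, adjusted p = 0.14). On leaving out CTL replicate 3 it was 1.43, and the gene was called higher (limma, adjusted p = 0.0098). The 3 other genes of the Pmp22 family, Emp1, Emp2 and Emp3, were not called either, and in each of the 4 genes the groups overlapped. CTL replicate 3 was the highest CTL library for all 4 genes and for each of 8 fibroblast markers except Dcn. Dcn was lowest there, at 310 CPM against 467 and 501 CPM in the other CTL libraries. Sums over the 8 markers, in the order of replicates, were 5015, 4340 and 16721 CPM for CTL. For the Nelfb-/- group they were 8310, 30567 and 33185 CPM. Col1a1, Col1a2 and Col3a1 made up most of each sum. The part of fibroblast RNA in the values of Pmp22 was not tested.

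S100b (ENSMUSG00000033208, chromosome 10 from 76253853 to 76261159), a calcium-binding protein used to stain Schwann cells, had 2.16, 0.980 and 4.96 CPM in the CTL libraries against 1.66, 5.65 and 4.32 CPM in those of Nelfb-/- cells. The groups overlapped over most of their ranges. The log2 fold change was 0.63 (SE 0.69, adjusted p = 0.57 by limma), and its 95% interval, from -1.03 to 2.30, is wide enough to hold a change of more than 2-fold in both directions. Of the 15 genes of the S100 family, 11 were tested and 1 was called, S100a1, which fell from 96.4 ± 9.36 CPM (SD, n = 3) to 30.0 ± 5.30 CPM (log2 fold change -1.70, SE 0.17, adjusted p = 0.0043 by limma).

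Levels of different genes were compared per kilobase of exon, as CPM divided by the exon length of each gene. In CTL the order was Pmp22 (74.9 ± 44.0), Ngfr (11.2 ± 4.93), Mbp (3.69 ± 0.846), Cdh19 (2.19 ± 0.496), S100b (1.82 ± 1.38), Gfra3 (0.778 ± 0.433), Erbb3 (0.740 ± 0.178) and L1cam (0.501 ± 0.132 CPM per kilobase; SD, n = 3). From Cdh19 downwards each gene's range over the libraries overlapped that of the next. In Nelfb-/- cells Pmp22 (134 ± 22.7) and Ngfr (71.3 ± 12.3) were again the highest, followed by Cdh19 (10.5 ± 1.59), and Erbb3 (4.87 ± 0.368), Gfra3 (4.47 ± 2.12), L1cam (2.87 ± 0.199), S100b (2.61 ± 1.37) and Mbp (1.61 ± 0.601 CPM per kilobase) each overlapped the next. Mbp was thus the third of the 8 genes in CTL and the last in Nelfb-/- cells.

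The promoters of 3 members are shown, because Ngfr and L1cam rose together while S100b did not pass the test. The RefSeq table for GRCm38.p6, the mm10 assembly, held windows for 4 of the 8 genes (Pmp22, S100b, Ngfr and L1cam), and the bases before a transcript start that lie in no annotated exon are printed 5′ to 3′ on the strand of the gene. Capitals mark the GC box, GGGCGG on either strand, which is the core letters of the Sp1 site. The windows are chr11:95587736-95587948 (minus strand) for Ngfr, chrX:73880835-73881084 (minus strand) for L1cam and chr10:76253586-76253835 (plus strand) for S100b.
Ngfr: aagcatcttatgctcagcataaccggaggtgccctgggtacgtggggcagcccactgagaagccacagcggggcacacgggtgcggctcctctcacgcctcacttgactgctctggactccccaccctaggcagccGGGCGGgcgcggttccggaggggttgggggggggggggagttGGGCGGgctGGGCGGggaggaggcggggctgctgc
L1cam: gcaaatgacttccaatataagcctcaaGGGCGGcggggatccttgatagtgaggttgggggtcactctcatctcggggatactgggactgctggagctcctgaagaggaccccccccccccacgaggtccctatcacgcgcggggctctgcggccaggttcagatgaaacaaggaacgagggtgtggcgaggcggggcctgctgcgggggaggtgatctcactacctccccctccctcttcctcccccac
S100b: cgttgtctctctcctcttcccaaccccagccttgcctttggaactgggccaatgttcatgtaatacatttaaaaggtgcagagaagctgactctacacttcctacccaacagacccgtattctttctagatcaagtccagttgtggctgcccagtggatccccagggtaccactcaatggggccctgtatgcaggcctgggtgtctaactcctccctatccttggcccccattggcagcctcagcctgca
The window of L1cam belongs to a transcript that starts within the gene. RefSeq lists another start of L1cam 44 bases further into the gene, whose window without exonic bases, chrX:73880835-73881040, is the last 206 bases of the printed stretch and held no GC box. The stretch of Ngfr, of 213 bases, held 3 GC boxes and the printed stretch of L1cam held 1, whereas that of S100b held none. Of 32851 windows of 250 bases before the start of all genes, 32.7% held a GC box on either strand. The SOX core letters ACAAAG and ACAATG, the TFAP2 letters GCCNNNGGC and the TATA box TATAAA, each searched on both strands, were found in none of the 3 stretches, and 16.5%, 10.7%, 13.7% and 12.4% of all windows held them. Of the 4 windows of Pmp22, which start at different transcripts, 2 held 3 GC boxes each, and the values do not tell which start was used.

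Genes of the lineage, and families, ligands and receptors related to the members, were described from lists. Not all genes of these families belong to the Schwann lineage. Of 96 genes in the 10 lists, members included, 67 were tested, 27 were called higher (40.3%) and 5 lower (7.46%), beside 7.58% and 3.64% of all genes tested. Without the members, 59 were tested, 22 were called higher (37.3%) and 4 lower (6.78%). The median log2 fold change of the 67 genes was 1.22. Without 1 library, the number called lay between 16 (without Nelfb-/- replicate 3) and 42 (without CTL replicate 3), and it was 21 when CTL replicate 1 was left out, 20 for CTL replicate 2 and 21 for Nelfb-/- replicate 2.

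Of the 8 Schwann cell transcription factors, 7 were tested and 4 were called higher. Sox10, the factor that specifies the glial lineage of the crest (ENSMUSG00000033006, chromosome 15 from 79154908 to 79165240), lay at 6.45, 7.93 and 7.92 CPM in the CTL libraries against 45.4, 50.9 and 41.2 CPM in those of Nelfb-/- cells. Its groups lay far apart, with a log2 fold change of 2.62 (SE 0.16, adjusted p = 0.0028 by limma). Foxd3, a factor of crest precursors and early glia, rose from 3.71 ± 0.931 CPM (SD, n = 3) to 21.4 ± 3.25 CPM (log2 fold change 2.53, SE 0.24, adjusted p = 0.0040 by limma). Sox2, which marks immature Schwann cells, had 0.406, 0.420 and 1.73 CPM in the CTL libraries against 6.78, 13.3 and 8.98 CPM in those of Nelfb-/- cells (log2 fold change 3.70, SE 0.60, adjusted p = 0.012 by limma), and its call did not hold without CTL replicate 2 or Nelfb-/- replicate 3 (limma, adjusted p up to 0.063). Tfap2a was the fourth, with a log2 fold change of 2.07 (SE 0.27, adjusted p = 0.0075 by limma). Egr2, the factor that turns on myelin genes and also an early adipogenic factor, was lower in every Nelfb-/- library (15.2, 24.7 and 20.6 CPM) than in any CTL library (31.1, 31.9 and 87.0 CPM) but was not called (log2 fold change -1.16, 95% interval -2.19 to -0.13, limma, adjusted p = 0.12). Pou3f1, which precedes Egr2 in myelination, was below the filter on mean reads, at 0.116 to 0.711 CPM.

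The myelin list held 18 genes, of which 9 were tested, 4 were called higher and 1, Mbp, lower. Dhh, Mal and Drp2, which rose while Mbp fell, had low levels. Dhh, the hedgehog ligand of Schwann cells, went from 0.388 ± 0.0750 to 2.37 ± 0.718 CPM, Mal from 0.450 ± 0.0381 to 3.19 ± 1.73 CPM and Drp2 from 0.571 ± 0.277 to 2.27 ± 0.181 CPM, with log2 fold changes of 2.46, 2.53 and 1.999 (limma, adjusted p = 0.0096, 0.024 and 0.021). The call of Dhh did not hold without Nelfb-/- replicate 3 (limma, adjusted p = 0.055), and those of Mal and Drp2 without CTL replicate 1 or 2 or Nelfb-/- replicate 2 or 3 (limma, adjusted p up to 0.11 and 0.10). Prx, which encodes periaxin of myelinating Schwann cells, was at 2.58 ± 0.567 CPM and 2.09 ± 0.398 CPM and was not called (log2 fold change -0.29, 95% interval -0.99 to 0.41). Pmp2, a fatty acid-binding protein of myelin, was at 0 to 0.612 CPM and also below that filter. Mag was not analysed here.

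Of the 14 genes listed for the surface and matrix of immature and non-myelinating Schwann cells, 13 were tested, 9 were called higher and 0 lower in limma. Sema3b had lower values in Nelfb-/- cells with an adjusted p of 0.031 by limma, but its log2 fold change of -0.70 was less than 2-fold. Apart from Ngfr, L1cam, Cdh19 and Gfra3, the genes that rose were Gap43, Cadm4, Cdh2, Fabp7 and Col28a1. Gap43, a growth cone protein also made by immature Schwann cells, had 2.30, 2.33 and 5.95 CPM in the CTL libraries against 19.2, 36.6 and 36.8 CPM in those of Nelfb-/- cells (log2 fold change 3.20, SE 0.45, adjusted p = 0.0089 by limma; without Nelfb-/- replicate 3, adjusted p = 0.052). Cadm4, the adhesion molecule by which Schwann cells hold axons, rose from 7.08 ± 1.05 CPM (SD, n = 3) to 53.8 ± 19.7 CPM (log2 fold change 2.86, SE 0.29, adjusted p = 0.0042 by limma). Fabp7, a marker of early glia, lay at 0, 0.187 and 0.374 CPM in the CTL libraries against 4.84, 2.44 and 2.65 CPM in those of Nelfb-/- cells. The calls of Cdh2, Fabp7 and Col28a1 did not hold in 4, 3 and 3 of the 6 fits with 1 library omitted, Nelfb-/- replicates 2 and 3 among them for each gene (limma, adjusted p up to 0.11, 0.084 and 0.068). Ncam1, S100b, Scn7a and Sema3b were not called.

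**Figure D2:**
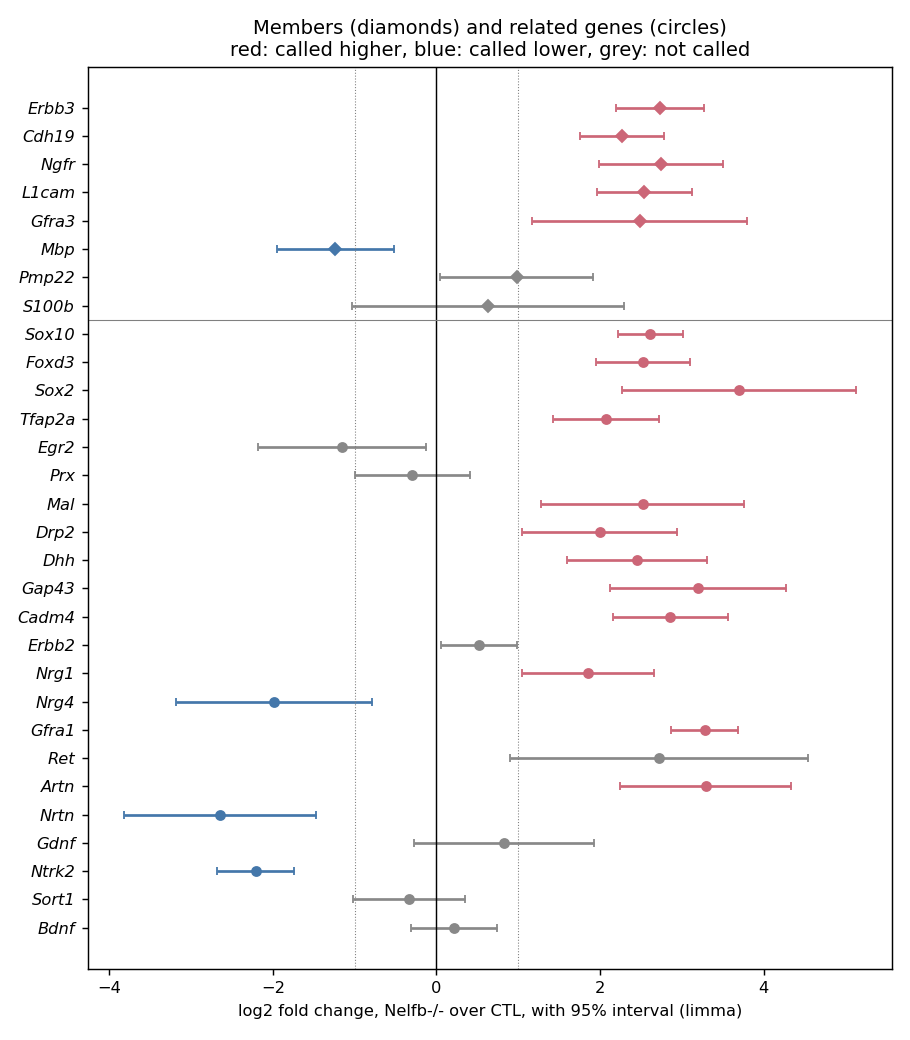
Log2 fold changes of Nelfb-/- over CTL with 95% intervals from limma for the 8 genes (diamonds, above the line) and related genes (circles), in red where called higher, blue where called lower and grey where not called, with dotted lines at a 2-fold change. Erbb3, Cdh19, Ngfr, L1cam, Gfra3, Sox10 and Foxd3 lie between 2.27 and 2.74, whereas Mbp, Nrg4, Nrtn and Ntrk2 lie on the side of the decreases.

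The genes were also set against Sox10 within each library, a measure chosen after the values had been seen. Per unit of Sox10, Erbb3 was at 0.418 to 0.713 in CTL and at 0.597 to 0.711 in Nelfb-/- cells. The ratio of Cdh19 was 1.02 to 1.49 in CTL and 0.902 to 1.07 in Nelfb-/- cells, and that of L1cam was 0.329 to 0.699 and 0.430 to 0.520. For Ngfr it was 3.97 to 7.29 and 4.79 to 6.07, and for Gfra3 0.106 to 0.318 and 0.0919 to 0.251. The 5 genes that rose therefore had ratios to Sox10 that overlapped between the groups. The ratios of the other 3 genes did not overlap and were lower in Nelfb-/- cells. Mbp was at 3.21 to 4.95 in CTL and 0.223 to 0.428 in Nelfb-/- cells, Pmp22 at 13.2 to 37.3 and 5.29 to 8.23, and S100b at 0.124 to 0.627 and 0.0365 to 0.111.

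**Figure D3:**
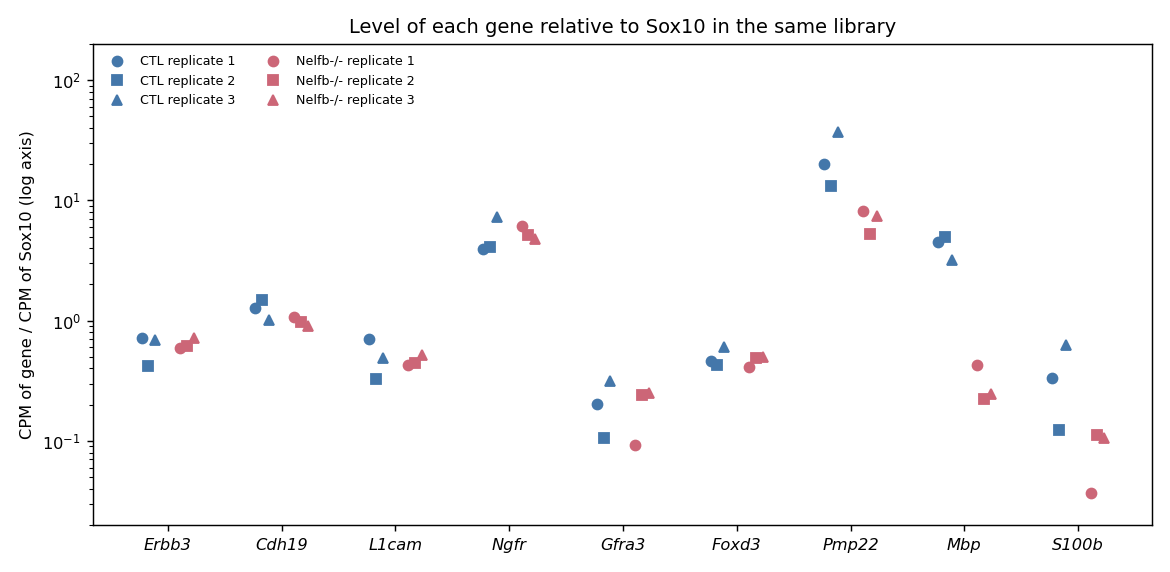
CPM of each gene divided by the CPM of Sox10 in the same library, on a log axis, for the 8 members and for Foxd3, with CTL in blue and Nelfb-/- cells in red. Erbb3, Cdh19, L1cam, Ngfr and Gfra3 overlap between the groups, whereas Mbp falls from at least 3.21 in CTL to at most 0.428 in Nelfb-/- cells.

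Markers of other cell types were measured beside these genes. Of the 11 melanocyte genes, 9 were tested, 6 were called higher and 0 lower in limma, and the smallest log2 fold change, -0.65 at Mitf, had an adjusted p of 0.47. Tyrp1 was at 34.9, 11.5 and 20.03 CPM in Nelfb-/- replicates 1, 2 and 3 and at or below the floor in all CTL libraries, which makes it at least 158-fold higher, and Dct was at 28.9, 12.0 and 18.8 CPM, against at most 0.442 CPM in CTL. Among the Nelfb-/- libraries, 7 of the 9 melanocyte genes were highest in replicate 1 and lowest in replicate 2, the exceptions being Mlana and Pmel. The 9 melanocyte genes summed to 73.8 to 104 CPM in CTL and to 84.1 to 243 CPM in Nelfb-/- cells, and most of the CTL sum came from Mitf (60.8 ± 12.8 CPM; SD, n = 3) and Ednrb (22.2 ± 5.42 CPM), which were not called, while Tyr, Tyrp1, Mlana and Slc45a2 did not exceed the floor in any CTL library. All 5 skeletal muscle genes tested and 7 of the 8 macrophage genes tested were also called higher, with summed levels of 7.47 to 9.72 CPM and 95.6 to 341 CPM in CTL and 46.1 to 72.7 CPM and 735 to 2107 CPM in Nelfb-/- cells. Of the neuron genes 1 of 6 tested (Nefm), of the endothelial genes 1 of 7 (Emcn), of the keratinocyte genes 2 of 4 (Krt14 and Dsp) and of the fibroblast genes 0 of 8 were called higher. At an unadjusted p under 0.05, 4 of the 8 fibroblast genes passed, all with higher values in Nelfb-/- cells, as did 19.6% of all genes tested in that direction and 12.9% in the other. The adipocyte list had 1 of 8 genes called, Lep, which was higher, but its median log2 fold change was -0.50. Adipoq, Plin1 and Pparg had lower values in Nelfb-/- cells at an unadjusted p under 0.05, and Plin1, Fabp4 and Pparg lay below CTL in each Nelfb-/- library without being called. Of the oligodendrocyte list, Myrf and Cldn11 alone were tested, Myrf was not called and Cldn11 was lower, and the other 6 genes of the list were not analysed here. The part of these cell types in the values of the 8 genes was not tested.

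**Figure D4:**
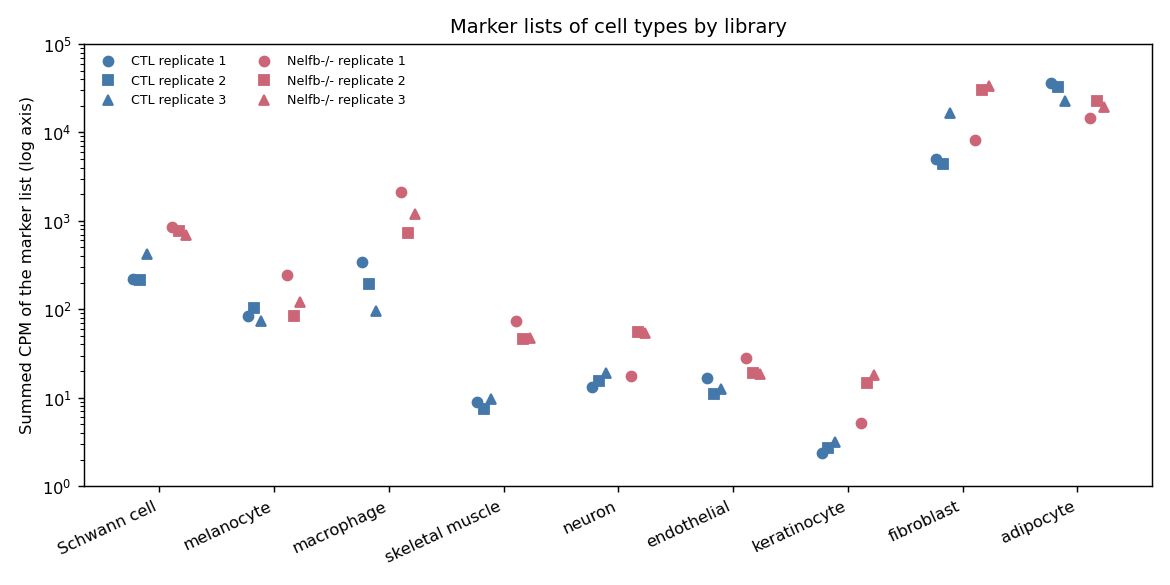
Summed CPM of each marker list in each library on a log axis, with CTL in blue and Nelfb-/- cells in red. The Schwann cell list, at 213 to 420 CPM in CTL and 690 to 853 CPM in Nelfb-/- cells, does not overlap between the groups, although Pmp22, which was not called, makes up 129, 105 and 295 CPM of its CTL sums. The macrophage, skeletal muscle, endothelial and keratinocyte lists do not overlap either, whereas the neuron, fibroblast and adipocyte lists overlap, as does the melanocyte list, whose sum in CTL is mostly Mitf and Ednrb.

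Among all genes tested, the 5 whose log2 values followed those of Erbb3 most closely over the 6 libraries were Lsp1, Gpatch4, Pnp, Pgm2 and Gm19744, with Pearson's r from 0.9985 to 0.9993. For Cdh19 they were Ahr, Plxnb1, Spp1, Wdr47 and Slc37a1, with r from 0.9966 to 0.9988. The 6 libraries fall into 2 groups that differ in both genes, and r does not depend on the size of a step. Any gene with a step in the same direction that is large beside its spread therefore has a high r. Pgm2 and Wdr47 were not called, with log2 fold changes of 0.73 to 0.83 and 0.40 to 0.45 over the fits with 1 library omitted. None of the 10 genes was in the lists above.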

How the data were processed

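RNA was sequenced from 3 CTL and 3 Nelfb-/- cultures. Per the submitters' processing notes, reads were processed in Partek version 9.0.20.0202 with STAR version 2.7 on mm10, whereas the study's methods name DESeq2 for the alignment step and an ANOVA in Partek for the comparison. The authors deposited 1 table of CPM values, which carry an offset of 0.0001 CPM and in which every gene reaches 10 reads in at least 1 library. CPM were turned back into reads from the step of 1 read per library. Of values up to 20 reads, 69.3% to 72.0% lay within 0.02 of a whole read, so no count test was used.

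Values were brought to a common depth of 22333659 reads and log2(reads + 1) was fitted with limma 3.58.1 in R 4.3.3, with a variance trend, for the 16252 genes whose mean reached 10 reads. P-values are two-sided and Benjamini-Hochberg adjusted over all genes tested. Calls needed both a 2-fold change and an adjusted p no higher than 0.05, and 1232 genes were called higher and 592 lower. On simulated data with 200 changed genes, 98 were recovered and 7 unchanged genes were called.

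The members and lists were chosen with earlier results of these data known. The genes named were Nelfb, the members, list genes that were called or define the Schwann lineage, ligands and co-receptors of members, and the 5 genes most like Erbb3 and Cdh19. Cell type markers and list genes that were not called were named after their values had been seen. Exon lengths and positions came from GENCODE vM21 (GRCm38), which matched 17551 genes, and promoters from RefSeq. Floors cover counting error only, and p-values measure the spread between these libraries. Alternatives were another scaling, other pseudocounts, other filters, a single prior variance, the replicate number as a block, and leaving out each library. Some list genes are not reported here.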

Additional observations from a re-analysis of the deposited data

How the results depend on the processing

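Over the 14 alternatives, Erbb3, Cdh19, Ngfr and L1cam were called higher in each, and S100b in none. With a single prior variance for all genes, Mbp was at -1.23 (limma, adjusted p = 0.053) and 0 members were called lower, though 1 had an unadjusted p under 0.05. When 1 library was left out, genes called higher numbered 290 to 1703 and genes called lower 136 to 776, members called higher 4 to 6 and lower 0 to 1, and genes called in the 10 lists 16 to 42. In these fits the log2 fold change lay between -1.52 and -1.05 for Mbp, 2.13 and 2.96 for Gfra3 and 0.68 and 1.43 for Pmp22. Genes called higher fell to 290 on leaving out Nelfb-/- replicate 3, to 625 for Nelfb-/- replicate 2, to 629 for CTL replicate 1 and to 536 for CTL replicate 2, but were 1703 for CTL replicate 3 and 1248 for Nelfb-/- replicate 1, and the cause was not tested. Egfr lay between -0.061 and 0.35 and changed sign without CTL replicate 2 (-0.061, limma, adjusted p = 0.87), and the cause was not tested. With the replicate number as a block, 1505 genes were called higher and 670 lower, and 5 members higher and 1 lower. Deviations of same-numbered libraries had r of 0.52, -0.39 and 0.52 over genes, so the numbers were not taken to pair the libraries, and CTL replicate 2 was closest to Nelfb-/- replicate 1 (0.48). Among the values of 45 other named genes over these alternatives, 49 lost their call, 2 gained one and 1 changed sign. The filter alternatives gave the same 17924 genes, since the table was already filtered. Genes below a mean of 10 reads, among them Pou3f1 and Pmp2, entered those fits but not the reported one.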
